A study of Homo sapiens with 45 samples.

Results

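The genes described here are 10 transcriptional outputs of the ERK pathway, DUSP6, DUSP4, SPRY2, SPRY4, SPRED1, EGR1, FOSL1, ETV4, ETV5 and PHLDA1, followed across knockdowns of signalling molecules and transcription factors in A375 cells, an established human melanoma cell line. They were chosen by name and not by a measured value, though with earlier results of these data known. They are 10 of the 19775 genes that had a probe set of their own on the Affymetrix U133 Plus 2.0 array. The main probe set of a gene was the one of highest mean over all arrays, and with the other probe sets there were 28 in all. A probe set was called above noise where its median over the arrays reached 1.5 times the median of the 3′ BioB spike-in control, a limit of 8.59 on the log2 scale. All 10 main probe sets passed this limit, as did 4800 genes in all.

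The ERK pathway is a relay of kinases in which growth factor receptors switch on RAS and RAF proteins, RAF kinases phosphorylate the MEK kinases, and MEK kinases phosphorylate ERK. Active ERK enters the nucleus, where it acts on ETS family and other transcription factors, and the transcripts that follow include brakes on the pathway itself. In melanoma cells this relay is often permanently active, and its target transcripts are widely used as a readout of its activity.

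The arrays used here came from 39 cultures of A375 cells transfected with a siRNA pool against 1 target each, 3 cultures that received control siRNA and 3 untreated cultures, with RNA taken 48 h after transfection. Each targeting pool was hybridised to a single array, so that none of these knockdowns had a replicate. The labels give 100 nM siRNA, where the methods of the study state lower concentrations, and the series design speaks of 45 targets, of which 39 were analysed here. The study placed the targeting pools in 3 batches, KD1 with 9 arrays, KD2 with 23 and KD3 with 7, while no batch was given for the arrays of control siRNA and of untreated cells. Every difference below is therefore a log2 value minus the median of the same probe set in the batch of that array, unless another baseline is named. The 3 control siRNA and 3 untreated arrays were replicates by their labels only, so p-values between them measure a spread that may be technical.

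The arrays carried the markers of the melanocyte lineage in part. SOX10, MITF and S100B were above noise, while PMEL, MLANA and TYR were not, and of the other cell types 1 of 5 measured keratinocyte markers (KRT10), 0 of 6 fibroblast markers and 0 of 4 leukocyte markers passed. One pair of arrays stood apart, since the values of control siRNA replicate 3 and untreated replicate 3 lay within 10% of each other at all 54675 probe sets. The SD of that log2 ratio was 0.084, against 0.180 to 0.620 in the other pairs of arrays, and results that rest on either array of this pair are given with and without it. Of the 22 siRNA pools named below, 20 had a target with a probe set of its own, and the target mRNA was 1.57 to 3.82-fold lower in the array of its own pool.

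Promoters of 6 of the 10 genes were found in the RefSeq table of build GRCh38.p14. The 250 bases before the transcription start are printed for EGR1, DUSP6, SPRY4 and PHLDA1, since these genes form the 2 pairs that varied most closely together across the knockdowns. They were searched on both strands for the CArG box, which binds serum response factor, for the ETS motif CCGGAA, for the AP-1 motif TGANTCA and for the EGR motif GCGNGGGCG, and matches are in capitals.
EGR1 promoter (chr5:138465229-138465478, plus strand): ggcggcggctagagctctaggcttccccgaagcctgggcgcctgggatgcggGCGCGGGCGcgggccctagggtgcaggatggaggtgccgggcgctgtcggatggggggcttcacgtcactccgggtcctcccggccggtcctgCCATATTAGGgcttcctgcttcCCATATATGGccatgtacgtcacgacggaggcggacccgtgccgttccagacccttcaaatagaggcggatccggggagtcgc
DUSP6 promoter (chr12:89352502-89352751, minus strand): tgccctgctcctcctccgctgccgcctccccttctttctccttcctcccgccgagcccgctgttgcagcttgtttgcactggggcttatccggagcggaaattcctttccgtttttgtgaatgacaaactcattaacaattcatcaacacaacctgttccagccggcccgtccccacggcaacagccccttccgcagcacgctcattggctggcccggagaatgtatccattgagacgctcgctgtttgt
SPRY4 promoter (chr5:142324248-142324497, minus strand): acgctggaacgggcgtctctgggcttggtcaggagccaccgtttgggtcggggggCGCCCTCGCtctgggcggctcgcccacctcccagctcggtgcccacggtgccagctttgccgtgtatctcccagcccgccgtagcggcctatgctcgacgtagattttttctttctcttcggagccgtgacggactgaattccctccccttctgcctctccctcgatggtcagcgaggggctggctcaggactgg
PHLDA1 promoter (chr12:76031777-76032026, minus strand): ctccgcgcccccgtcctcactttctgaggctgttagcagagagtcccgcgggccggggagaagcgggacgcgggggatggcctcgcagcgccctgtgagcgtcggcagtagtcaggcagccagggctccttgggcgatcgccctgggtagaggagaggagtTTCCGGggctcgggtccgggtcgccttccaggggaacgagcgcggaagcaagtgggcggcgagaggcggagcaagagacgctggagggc
The EGR1 promoter held 2 CArG boxes, at -105 to -96 and at -83 to -74 from the start, and 1 match to the EGR motif at -198 to -190. A CArG box occurred in 1.16% of the 35116 promoters searched, and the EGR motif in 8.41%. The SPRY4 promoter held an EGR motif at -195 to -187 and the PHLDA1 promoter an ETS motif at -89 to -84, a motif found in 14.5% of promoters. None of the motifs was found in these 250 bases of DUSP6, and the AP-1 motif, present in 6.57% of promoters, was in none of the promoters found for these genes. A match describes the letters only, and binding was not measured.

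The direct perturbation of the pathway in these data was the siRNA pool against MAP2K1, the gene of the kinase MEK1. The target itself stood at 8.04 on the log2 scale in its own array, against a KD2 median of 9.86, which is 3.53-fold lower, and in the other 22 KD2 arrays it lay within 0.15 of that median. In the same array 9 of the 10 output genes lay below the KD2 median, and 2 of them, EGR1 and FOSL1, lay below it by more than 1.5-fold. Over all genes above noise, 57% lay below the KD2 median in that array and 1.46% were lower by 1.5-fold. As many of the 10 genes or more lay below the batch median in 3 other KD2 arrays, 10 after SP100 siRNA (35.4% of genes above noise lower), 9 after RBL2 siRNA (35.4%) and 9 after STAT6 siRNA (51.4%). After quantile normalization 8 of the 10 genes lay below the KD2 median in the MAP2K1 siRNA array, against 50.1% of genes above noise. In the values as deposited this array held more genes past 1.5-fold in either direction than any other of the 39, namely 81 of 4800. With 1 array there was no test, and each value is set against the spread of the 22 KD2 arrays of other pools, which are different knockdowns and not replicates. In RNA of a whole culture, fewer expressing cells and less RNA per cell cannot be told apart.

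DUSP6, the cytoplasmic phosphatase that removes the activating phosphates of ERK, was at 10.99 in the MAP2K1 siRNA array, against 11.02 to 11.60 in the other 22 KD2 arrays and a KD2 median of 11.39. The difference of its main probe set from the KD2 median was -0.40, the lowest of all 39 targeting arrays, with an SD of 0.19 among the other 22 arrays. The next array, that of RBL2 siRNA, was at -0.36, so DUSP6 was at the end of its range but not apart from it. DUSP4, a nuclear phosphatase of the same family, was also at -0.40 after MAP2K1 siRNA. Here 3 other KD2 arrays lay lower, and the SD of the others was 0.31.

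The Sprouty and Spred proteins are membrane-associated inhibitors that act between the receptors and RAF. SPRY2 was at -0.19 after MAP2K1 siRNA, the lowest of the 23 KD2 arrays, with values of the other 22 between -0.17 and 0.26 and an SD of 0.12. SPRED1 was at -0.15 and SPRY4 at -0.10, with 4 and 7 other KD2 arrays lower. For both genes the difference was smaller than the SD of the other arrays, which was 0.18 for SPRED1 and 0.21 for SPRY4.

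Among the transcription factors, EGR1, a zinc finger factor induced within minutes of stimulation, was at 8.70 in the MAP2K1 siRNA array against a KD2 median of 9.43. That is a difference of -0.73, or 1.66-fold lower, and only the array of STAT6 siRNA was lower in KD2, at -1.06. EGR1 also varied most among the other 22 arrays, with an SD of 0.42 and a highest value of 0.84. FOSL1, the AP-1 component FRA1, was at 8.91 against a KD2 median of 9.51. Its difference of -0.60, or 1.51-fold lower, was the lowest of all 39 targeting arrays, with an SD of 0.28 among the other 22. ETV4 and ETV5, ETS factors of the PEA3 group, were at -0.15 and 0.09, and ETV5 was the only one of the 10 genes above its KD2 median in the values as deposited. PHLDA1, which encodes a pleckstrin homology-like domain protein induced by mitogens, lay at the median of its batch, with a difference smaller in size than 0.01.

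**Figure D1:**
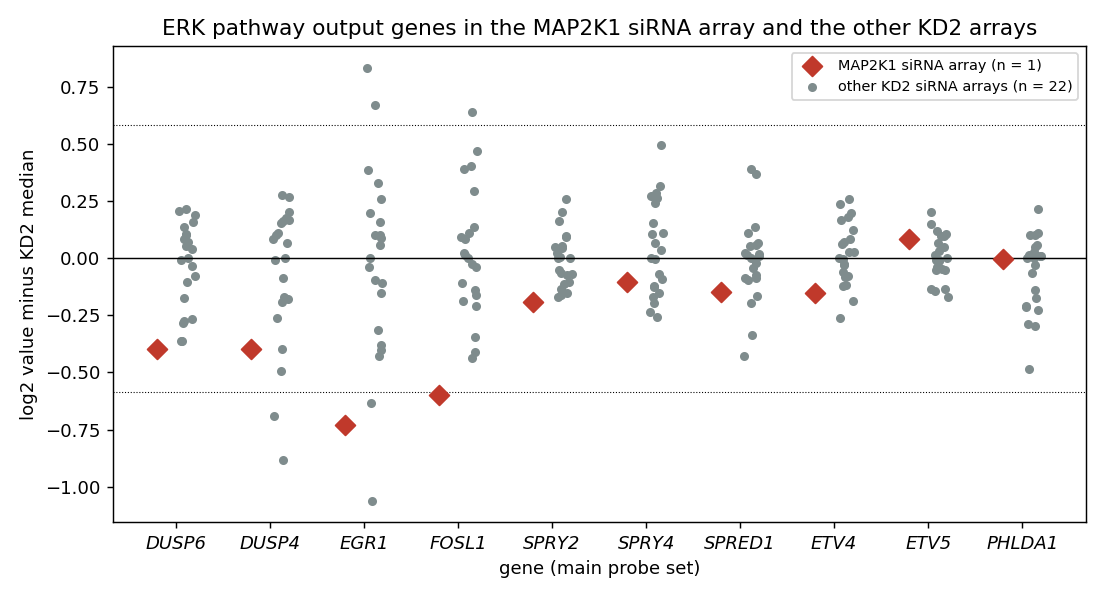
Log2 value minus the KD2 median for the main probe set of each of the 10 genes in the MAP2K1 siRNA array (red diamonds, 1 array) and in the 22 other KD2 arrays (grey points, 1 siRNA pool each), with dotted lines at 1.5-fold. EGR1 at -0.73 and FOSL1 at -0.60 lie past the lower line, DUSP6 and FOSL1 lie below all grey points, and ETV5 is at 0.09; under quantile normalization 8 of the 10 red diamonds lie below 0.

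Taken as a group, the 10 genes had a median difference of -0.17 in the MAP2K1 siRNA array, against -0.03 for all genes above noise. The medians of the 10 genes in the other 22 KD2 arrays ran from -0.15 to 0.12 with an SD of 0.09. The value after MAP2K1 siRNA was the lowest of 39, followed by STAT6 siRNA at -0.15, but after quantile normalization it was 5th from the lowest, at -0.12, with RBL2 siRNA lowest at -0.18. The MAP2K1 siRNA array was the lowest of its 23 for 3 of the 10 genes, against 12.8% of all genes above noise, and for 1 of the 10 after quantile normalization.

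The baseline decided part of this result. With the mean of the 3 arrays of control siRNA as the baseline, 5 of the 10 genes were lower after MAP2K1 siRNA and the median was -0.02, while 51.1% of all genes above noise were lower. FOSL1 was then at -1.41, EGR1 at -1.16, DUSP6 at -0.45 and ETV4 at -0.44, whereas SPRED1 was at 0.28, PHLDA1 at 0.17 and SPRY4 at 0.12. Without control siRNA replicate 3, a baseline chosen after seeing the data, EGR1 was at -0.36 and DUSP6 at -0.26, while FOSL1 stayed at -1.41 and SPRY4 was at -0.05. Against it 5 of the 10 genes were lower and 1, FOSL1, by 1.5-fold, with a median of -0.02 and 54.9% of genes above noise lower. The size of the EGR1 difference from control siRNA thus rested on 1 array. Against the mean of the untreated arrays 9 of the 10 genes were lower, with a median of -0.26, and 49.1% of genes above noise were lower. Without untreated replicate 3, likewise chosen after seeing the data, 9 genes were lower with a median of -0.33, and 51.8% of genes above noise were lower. EGR1, FOSL1, DUSP6 and ETV4 were lower after MAP2K1 siRNA against each of these baselines, and batch and treatment cannot be told apart in the control and untreated arrays.

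The other probe sets gave a fuller view of single genes. Of all 28 probe sets of the 10 genes, 26 lay below the KD2 median after MAP2K1 siRNA, with a median difference of -0.20, and of the 21 above noise 19 did. Of the main probe sets of all genes above noise 57% did, and the share over all probe sets was not counted. The 28 are repeated readings of 10 genes and not further genes. All 3 probe sets of DUSP6 (-0.40, -0.38 and -0.29) and of DUSP4 (-0.40, -0.32 and -0.23) lay below the KD2 median. For DUSP6 the MAP2K1 siRNA array was the lowest of the 23 KD2 arrays by the main probe set only. By the other 2 it was 3rd and 6th from the lowest. For EGR1 the difference rested on the main probe set, since its other 2 were at -0.29 and -0.03, both below noise. ETV5 was split, with the main probe set at 0.09 and another one above noise at -0.42, the lowest of the 23 KD2 arrays, and this pair had a rho of -0.31 with each other over the 39 arrays. For PHLDA1, 2 of the other probe sets were at -0.30 and -0.26, while the main probe set was at its batch median. Probe sets of 1 gene read the same RNA extract and can bind different transcript ends.

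**Figure D2:**
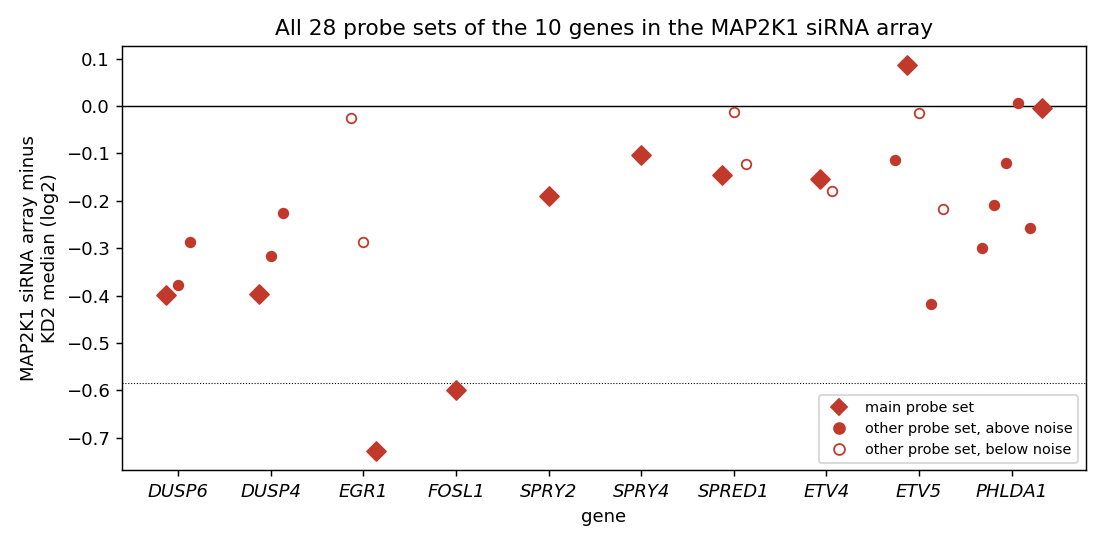
MAP2K1 siRNA array minus the KD2 median, on the log2 scale, for each of the 28 probe sets of the 10 genes; diamonds are main probe sets, filled circles other probe sets above noise and open circles other probe sets below noise. All but 2 of the 28 lie below 0, the exceptions being the main probe set of ETV5 at 0.09 and 1 probe set of PHLDA1 at 0.01. Of all genes above noise 57% lie below 0 in this array.

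Other genes of the pathway were taken from lists chosen by name. Of 10 further ERK outputs 7 were lower after MAP2K1 siRNA, with a median of -0.27, and 2 passed 1.5-fold, LIF, a cytokine of the interleukin 6 family, at -0.71 and EPHA2, a receptor of ephrins, at -0.68. LIF was below noise, and in this list 4 genes were the lowest of KD2 in this array. Of the 5 further outputs above noise 4 were lower, and 2 were the lowest of KD2. Over all genes above noise 57% were lower and 12.8% were the lowest of KD2. Of 9 immediate early genes 7 were lower, with EGR3 at -0.95 and the phosphatase gene DUSP1 at -0.44, both below noise. Only IER2 of that list was above noise, at -0.19. The upstream chain, from receptors to kinases and their direct substrates, showed no common direction, with 11 of 20 genes other than MAP2K1 lower and a median of -0.03. FGFR1, at -0.47 and below noise, and EGFR, at -0.32 and below noise, were lowest there, and ETS2 at 0.35, below noise, and ARAF at 0.32 were highest.

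The MAP2K1 siRNA array did not stand at an end of KD2 in RNA quality. Its difference between the 3′ and 5′ control probe sets of ACTB was 1.33 on the log2 scale, against 1.09 to 2.08 in KD2 as a whole, and that of GAPDH was -0.08, against -0.09 to -0.02. The summed intensity of the 4 leukocyte markers was 237 there against a median of 386 over all arrays, and that of the 6 fibroblast markers was 473 against 373, with none of these markers above noise. The part of these values in the result was not tested.

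Over all 39 targeting arrays, 11 of the 390 differences of the 10 genes were past 1.5-fold, 7 lower and 4 higher. The share is 2.82%, against 0.386% over all genes above noise. EGR1 gave 7 of the 11, DUSP4 gave 2 and FOSL1 gave 2, while DUSP6, SPRY2, SPRY4, SPRED1, ETV4, ETV5 and PHLDA1 gave none. EGR1 thus gave most of these values, and the main probe sets of 7 of the 10 genes stayed within 1.5-fold of their batch median in all 39 arrays.

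EGR1 was lowest after CCNB2 siRNA, at -1.15 in KD3, followed by STAT6 siRNA at -1.06. CCNB2 encodes cyclin B2, which acts at entry into mitosis, and STAT6 a factor of interleukin signalling. EGR1 was highest after siRNA against SP1, a zinc finger factor of GC-rich promoters, at 0.87, and against PIK3CB, a catalytic subunit of PI3-kinase, at 0.84. FOSL1 was highest after AKT1 siRNA, at 0.64, and after CCNB1 siRNA, at 0.47, and below the MAP2K1 siRNA array it had no other value, HDAC2 siRNA being next at -0.43.

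DUSP4 was lowest after siRNA against FOXM1, a forkhead factor of the cell division programme, at -0.88, or 1.84-fold lower, and after PIK3CB siRNA at -0.69, or 1.61-fold lower. Its probe sets differed in the FOXM1 siRNA array, where the other 2 were at -0.25 and 0.05, but were alike after PIK3CB siRNA, at -0.53 and -0.67. By its main probe set DUSP6 did not follow DUSP4 in either array, with 0.14 after FOXM1 siRNA and 0.21 after PIK3CB siRNA. The other 2 probe sets of DUSP6, both above noise, were at 0.19 and 0.20 after PIK3CB siRNA. After FOXM1 siRNA they were at -0.11 and -0.22, below the batch median like the main probe set of DUSP4. PCNA siRNA at 0.32 and HDAC3 siRNA at 0.28 gave the highest values of DUSP4. DUSP6 itself was highest after RB1 siRNA, at 0.29, and after CTNNB1 siRNA, at 0.23, though another probe set of DUSP6 was at -0.28 after RB1 siRNA.

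For the inhibitors, SPRY4 was highest after siRNA against CCND3, which encodes cyclin D3, at 0.49, and after CDKN2C siRNA, at 0.32, and lowest after RB1 siRNA, at -0.35, and CCNB2 siRNA, at -0.29. SPRED1 was lowest after siRNA against CDC2, which encodes the mitotic kinase CDK1, at -0.45, and CDKN2C siRNA, at -0.43, and highest after FOXM1 siRNA, at 0.39, and HDAC3 siRNA, at 0.37. SPRY4 and SPRED1 thus lay on opposite sides of their medians after CDKN2C siRNA. SPRY2 had the narrowest range of the inhibitors, from -0.35 after FOXO3A siRNA to 0.26 after HDAC3 siRNA, with HSF2 siRNA at -0.21 and CDK4 siRNA at 0.20 next to these ends.

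The array of RB1 siRNA, against the retinoblastoma protein that restrains entry into S phase, held the lowest ETV5, at -0.51, and the lowest ETV4, at -0.32, besides the lowest SPRY4. These are main probe sets, and the other probe sets of ETV5 above noise were at 0.11 and 0.09 in that array. The other probe set of ETV4, below noise, was at -0.09 there. The next lowest values were -0.42 for ETV5 after FOXO3A siRNA and -0.26 for ETV4 after HDAC2 siRNA. At the upper end, ETV4 was at 0.42 after CDC2 siRNA and 0.29 after PCNA siRNA, and ETV5 at 0.30 after SP1 siRNA and 0.20 after CDKN2C siRNA. PHLDA1 ran from -0.49 after AKT1 siRNA and -0.30 after CCNA2 siRNA to 0.36 after CDK7 siRNA and 0.22 after CCND3 siRNA. The other 5 probe sets of PHLDA1 lay between -0.39 and -0.04 after AKT1 siRNA and between 0.17 and 0.35 after CDK7 siRNA, on the side of the main probe set in both arrays.

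**Figure D3:**
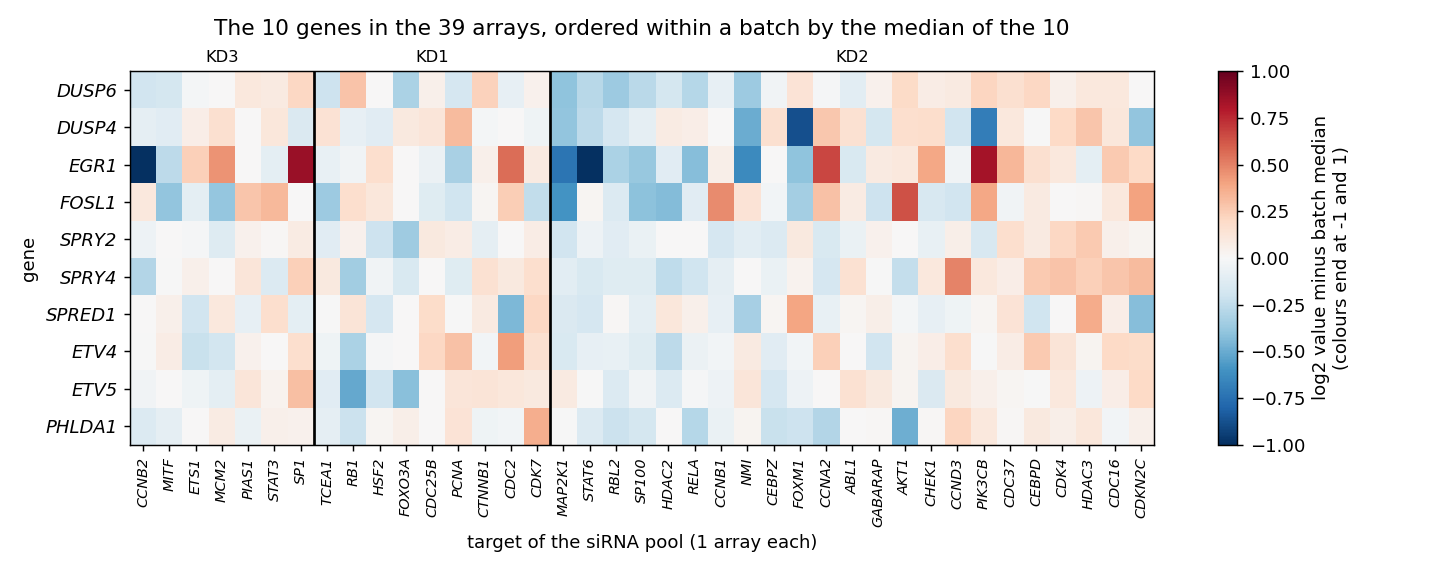
Log2 value minus the batch median for the 10 genes (rows) in the 39 targeting arrays (columns, 1 siRNA pool each), by batch and, within a batch, from the lowest to the highest median of the 10 genes; colours end at -1 and 1. EGR1 shows the deepest colours, from -1.15 after CCNB2 siRNA to 0.87 after SP1 siRNA, and the MAP2K1 siRNA column opens KD2 with a median of -0.17, which is 5th from the lowest of all arrays after quantile normalization.

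Most of the 10 genes differed in level between the batches. By limma, with adjustment over all 54675 probe sets, 9 of the 10 differed between KD3 and KD2, 5 of them higher in KD3, against 72.9% of genes above noise (31.8% higher) and 41.8% of all probe sets. Between KD1 and KD2 8 of the 10 differed, 4 in each direction (6 higher and 2 lower in KD1 with the probe set of largest variance for each gene), against 67.1% of genes above noise (33.2% higher) and 44.5% of all probe sets. Between KD3 and KD1 7 did, 4 of them higher in KD3 (4 of 9 with the probe set of largest variance), against 76.7% of genes above noise (34.7% higher) and 48.1% of all probe sets. The shares of the 10 genes were thus near those of all genes above noise. The batches held different siRNA pools, so that batch and pool cannot be told apart in these values.

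EGR1 gave the widest batch difference. It lay between 10.34 and 12.35 with a median of 11.49 in KD3, between 9.72 and 10.60 with a median of 10.04 in KD1, and between 8.37 and 10.26 with a median of 9.43 in KD2. No KD3 array was as low as the highest KD2 array, and EGR1 was 4.34-fold higher in KD3 than in KD2 (limma log2 difference 2.12 ± 0.18, SE, n = 7 and 23, adjusted p = 5.21e-14). It was 2.66-fold higher in KD3 than in KD1 (adjusted p = 1.18e-07) and 1.63-fold higher in KD1 than in KD2 (adjusted p = 0.000338). The other 2 probe sets of EGR1 were higher in KD3 than in KD2 too, by 1.5 and 0.74 on the log2 scale (limma adjusted p = 2.66e-12 and 1.75e-08), while neither passed the threshold between KD1 and KD2 (adjusted p = 0.393 and 0.126).

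FOSL1 followed another order, with KD1 highest. It ran from 9.68 to 10.39 with a median of 10.07 in KD3, from 10.41 to 11.01 with a median of 10.77 in KD1, and from 8.91 to 10.15 with a median of 9.51 in KD2. The values of KD1 overlapped neither other batch. FOSL1 was 2.33-fold higher in KD1 than in KD2 (limma log2 difference 1.22 ± 0.10, SE, n = 9 and 23, adjusted p = 2.77e-13), 1.45-fold higher in KD3 than in KD2 (adjusted p = 0.000121) and 1.60-fold lower in KD3 than in KD1 (adjusted p = 3.03e-05).

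The phosphatase genes moved in opposite directions between batches. DUSP6 was 1.46-fold higher in KD3 than in KD2 (limma adjusted p = 1.25e-07) and higher by 0.26 on the log2 scale in KD1 than in KD2 (adjusted p = 0.00291). The other 2 probe sets of DUSP6, at 0.11 and 0.05 in KD1 over KD2, did not pass there (adjusted p = 0.285 and 0.697). DUSP4 was 1.40-fold lower in KD3 than in KD2 (adjusted p = 0.000123). Between KD1 and KD2 its probe sets disagreed, the main one at -0.25 (adjusted p = 0.0273) and another at 0.44 (adjusted p = 3.40e-07).

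Of the inhibitors, SPRY4 was lower in KD3 than in both other batches, by 1.37-fold against KD2 and 1.39-fold against KD1 (limma adjusted p = 6.97e-06 and 3.21e-05), and the difference between KD1 and KD2 did not pass the threshold (adjusted p = 0.812). SPRED1 was lower in both KD1 and KD3 than in KD2, by 1.38-fold and 1.24-fold (adjusted p = 3.15e-07 and 0.000833). The other 2 probe sets of SPRED1 were lower in KD1 too, but in KD3 over KD2 they were at -0.03 and -0.06 and did not pass (adjusted p = 0.819 and 0.589). SPRY2 was likewise lower in both, by 1.15-fold and 1.11-fold (adjusted p = 0.000850 and 0.0261). None of the 3 inhibitor genes was thus called higher in another batch than in KD2.

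ETV4 was 1.38-fold higher in KD1 than in KD2 (limma adjusted p = 4.11e-08), and ETV5 was 1.18-fold higher in KD3 than in KD2 (adjusted p = 0.00223). Between KD1 and KD2 the main probe set of ETV5 did not pass (limma adjusted p = 0.484). Its other probe sets above noise were higher in KD1 there, by 0.24 and 0.47 on the log2 scale (adjusted p = 0.00844 and 1.55e-06). PHLDA1 was highest in KD3, by 1.24-fold over KD2 (adjusted p = 9.59e-05) and 1.45-fold over KD1 (adjusted p = 8.70e-08). The other 5 probe sets of PHLDA1 were higher in KD3 than in KD2 by more, 0.88 to 1.68 on the log2 scale, and all passed. Of the immediate early genes 8 of 9 were higher in KD3 than in KD2 and none lower, against 31.8% of genes above noise and 19.8% of all probe sets higher, among them IER2, the only one of the list above noise, by 2.53-fold (adjusted p = 4.32e-20), and of the further ERK outputs 6 were higher and 2 lower, with LIF 4.11-fold higher (adjusted p = 1.43e-14) and EPHA2 2.06-fold higher (adjusted p = 1.95e-11). The ACTB difference between 3′ and 5′ control probe sets moved with the batches, with medians of 0.58 in KD3, 1.28 in KD1 and 1.51 in KD2, and its part in the result was not tested.

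**Figure D4:**
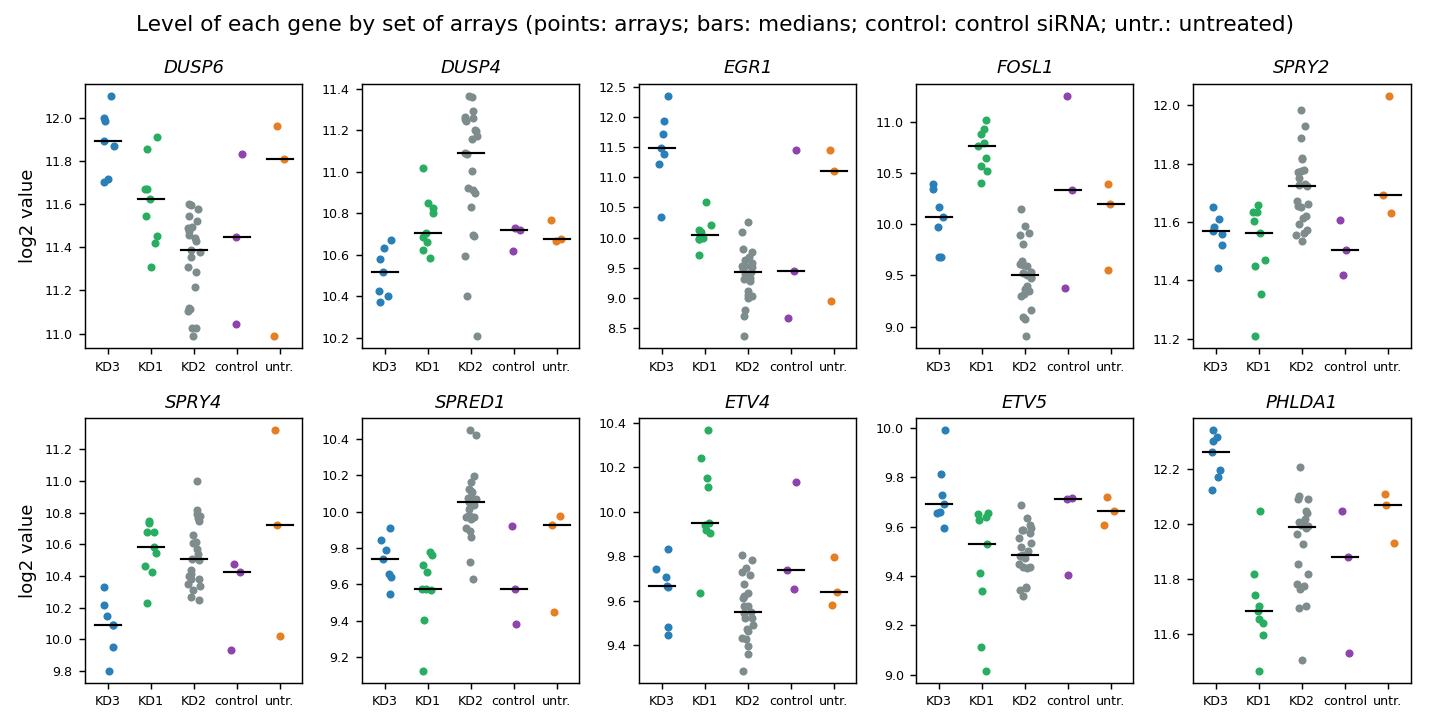
Log2 value of the main probe set of each of the 10 genes in the arrays of batches KD3, KD1 and KD2 and in the control siRNA and untreated arrays (points are arrays, bars are medians, and each panel has its own axis). EGR1 is highest in KD3 with a median of 11.49, FOSL1 is highest in KD1 with a median of 10.77, and in the control siRNA and untreated arrays EGR1 spans most of the range of the 3 batches.

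None of the 10 genes passed the test between control siRNA and untreated cultures. EGR1 was at 9.45, 8.66 and 11.46 in control siRNA replicates 1, 2 and 3, against 11.10, 8.96 and 11.46 in the untreated replicates of the same numbers. The SD of EGR1 was 1.44 in the control siRNA arrays and 1.35 in the untreated arrays (n = 3 each), more than the difference of -0.65 between their means, and the groups overlapped. Both SDs and this difference include the replicate 3 pair that stood apart. Without replicate 3 of both groups the EGR1 difference was -0.97, and the values still overlapped. FOSL1 was at 11.25, 9.38 and 10.33 in the control siRNA arrays and at 10.19, 9.55 and 10.39 in the untreated arrays, and DUSP6 at 11.45, 11.05 and 11.83 in the control siRNA arrays and at 11.96, 10.99 and 11.81 in the untreated arrays. In both groups replicate 2 held the lowest EGR1, FOSL1 and DUSP6.

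SPRY2 was at 11.42, 11.61 and 11.50 in the control siRNA arrays, against 12.03, 11.69 and 11.63 in the untreated arrays. Its groups did not overlap, with control siRNA lower, and the limma difference was -0.27 (adjusted p = 0.9999). SPRY4 was at 10.47, 10.43 and 9.93 in the control siRNA arrays, against 11.32, 10.72 and 10.02 in the untreated arrays, with replicate 3 lowest in both and control siRNA lower in all 3 numbers. By limma the differences of the 10 genes ran from -0.65 for EGR1 to 0.27 for FOSL1, and all had an adjusted p of 0.9999. No probe set of the 54675 passed (0% of all probe sets), with 97 at an unadjusted p under 0.05, of which 0 were main probe sets of the 10 genes. Without replicate 3 of both groups, the pair that stood apart, again 0 passed, as with the replicate number as a block. With the block SPRY4 was at -0.41 with an unadjusted p of 0.0277 and an adjusted p of 0.874 by limma, the only one of the 10 genes at an unadjusted p under 0.05.

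Across the 39 targeting arrays, centred by batch, the 10 genes varied together in part. Of their 45 pairs 4 had a Spearman rho of 0.5 or more, or 8.89%, against 1.71% of all pairs of genes above noise. The median rho of the 45 pairs was 0.24, against 0.04 over all pairs of genes above noise. With no batch centring these medians were -0.04 and 0.03. These are descriptions over arrays that share batches and, for each array, 1 RNA extract. The 4 pairs were SPRY4 with PHLDA1 (rho = 0.57), DUSP6 with EGR1 (rho = 0.57), ETV4 with ETV5 (rho = 0.53) and DUSP6 with SPRY2 (rho = 0.52), each over 39 arrays. Once the 2 most extreme arrays of the first gene in each pair were left out, Pearson's r was 0.52, 0.57, 0.40 and 0.42 for these pairs in the same order, against 0.59, 0.62, 0.52 and 0.48 over all arrays. The main probe set of ETV5 had a rho of -0.24 and -0.31 with its other probe sets above noise. The values of ETV5 with other genes thus rested on 1 probe set.

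The strength of these relations differed by batch. DUSP6 and EGR1 had a rho of 0.71 within KD2 and 0.71 within KD3 but 0.17 within KD1. SPRY4 and PHLDA1 had 0.77 within KD2, 0.29 within KD3 and 0.12 within KD1. DUSP6 and SPRY2 were more even, with 0.54, 0.75 and 0.50 in KD2, KD3 and KD1. For ETV4 and ETV5 the values were 0.38 in KD2, 0.86 in KD3 and 0.52 in KD1. KD1 held 9 arrays and KD3 held 7, so values within them are coarse.

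The promoters printed above belong to the 2 pairs with the highest rho. Of the pair DUSP6 and EGR1, the EGR1 promoter held CArG boxes and an EGR motif and the DUSP6 promoter none of the motifs searched. In the pair SPRY4 and PHLDA1 the promoters shared none of these motifs.

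The genes fell into a larger loose group and others apart from it. SPRY4 had a median rho of 0.43 with the other 9 genes and SPRY2 of 0.34, whereas FOSL1 had 0.03 and SPRED1 had -0.08. The lowest rho of any pair was that of FOSL1 with SPRED1, at -0.28. DUSP4 had its highest rho among the 10 with SPRED1, at 0.24, where SPRED1 was only 434th by likeness to DUSP4 among the 4799 other genes above noise. SPRY4, in contrast, was 5th of them by likeness to PHLDA1, and DUSP6 was 12th by likeness to EGR1.

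**Figure D5:**
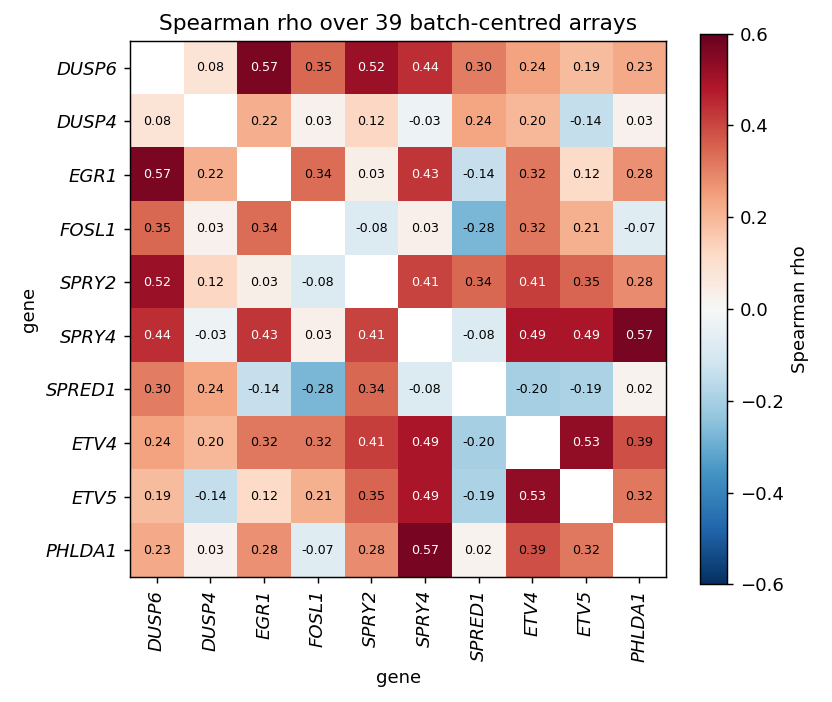
Spearman rho between the main probe sets of the 10 genes over the 39 targeting arrays after centring on the batch median. The highest values are 0.57 for SPRY4 with PHLDA1 and for DUSP6 with EGR1, and the lowest is -0.28 for FOSL1 with SPRED1.

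By the same measure, the 3 genes above noise most like each of the 10 were sought. Closest to DUSP6 were CBL, a ubiquitin ligase of activated receptors (rho = 0.78), KLF10 (0.74) and the survival factor gene MCL1 (0.74). EGR1 was closest to IER2, another immediate early gene (0.77), then ENC1 (0.65) and IER3, one of the further ERK outputs (0.65). IER2 was also closest to ETV4 (0.65), followed by TNFRSF1A (0.64) and ACTN4 (0.63).

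FOSL1 was closest to RRM2, the small subunit of ribonucleotide reductase (rho = 0.74), to UBE2T, a ubiquitin-conjugating enzyme of DNA repair (0.74), and to EZR, which encodes ezrin (0.73). Closest to SPRY4 were HYOU1 (0.75), SSH1 (0.69) and ATP2B4 (0.68), to SPRY2 INPP5F (0.61), TGFA, a ligand of the EGF receptor (0.59), and IRF2BPL (0.58), and to SPRED1 STAM (0.73), ATP2B1 (0.69) and CRNDE (0.65).

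For DUSP4 the closest genes were RAMAC (rho = 0.60), PRNP (0.60) and LGALS3 (0.57), lower values than for DUSP6. ETV5, by a main probe set that its other probe sets above noise did not follow, was closest to EIF4G1 (0.73), PFN1 (0.70) and BAZ1B (0.69). PHLDA1 was closest to IFNGR2 (0.68), ZSWIM6 (0.60) and FGFRL1 (0.58). IER2 was the only gene that came among the closest 3 of more than 1 of the 10, and none of the 10 came among the closest 3 of another.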

How the data were processed

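Biotin-labelled cRNA made from the RNA of A375 cultures was hybridised to Affymetrix U133 Plus 2.0 arrays. The authors made the deposited intensity values with RMA, whose version is not given in the sources used here, and these were taken to log2 with no further normalization. RMA scales the probe values of all arrays to 1 distribution, so a shift of all RNA cannot be seen. The array medians of the deposited values still ran from 5.06 to 5.15 on the log2 scale. Arrays have no read depth, so that the number of arrays and the signal over noise limit precision. Of 54675 probe sets, 41097 had 1 gene name, 1801 several and 11777 none.

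Samples were grouped by their labels and batches were taken from the paper. A value was set against the batch median, 1.5-fold (0.58 on the log2 scale) was the fold counted, and the Spearman rho counted was 0.5. Batches, and control siRNA and untreated arrays, were compared with limma 3.58.1 in R 4.3.3 at a Benjamini-Hochberg adjusted p under 0.05 over all probe sets, which was tested on simulated data; other steps used Python 3.11.15 with pandas 2.3.3. The replicate numbers of control siRNA and untreated arrays were checked as pairs: deviations of same-numbered arrays had correlations of 0.580, 0.671 and 0.890, the last being the pair that stood apart. Replicate 1 of one group with replicate 2 of the other had 0.167 and 0.231. The deviations were from group means that include replicate 3, which raises the values among replicates 1 and 2, and were not taken without it. The fit with the numbers as a block is given with the alternatives.

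The genes named were the 10 genes, the siRNA arrays of the lowest 2 and highest 2 values of each, the 3 genes most like each, and from the lists the genes past 1.5-fold or at the ends in the MAP2K1 siRNA array. The 10 genes and the lists were chosen with earlier results of these data known. Promoter sequences are from RefSeq, and promoters on chromosome 8, which carries DUSP4, were left out of the search. FOSL1, ETV4 and ETV5 had none among the promoters searched. A few pathway genes without a probe set named in the table were not analysed here. Alternatives were another baseline, probe set, normalization, fold, noise filter, prior variance, measure of likeness, and arrays left out.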

Additional observations from a re-analysis of the deposited data

How the results depend on the processing

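The count of 2 genes lower by 1.5-fold after MAP2K1 siRNA was 4 where a difference of 0.32 on the log2 scale counted (7.96% of genes above noise) and 0 at 2-fold (0.0417%), and 1, FOSL1, with the median over all probe sets of a gene. The 9 genes lower by any amount became 5 with control siRNA as the baseline, where the median of -0.17 became -0.017, and the median was -0.26 with untreated arrays as the baseline. Without control siRNA replicate 3, chosen after seeing the data, 1 gene was lower by 1.5-fold and 5 by any amount, with a median of -0.018, and without untreated replicate 3 the median was -0.33. After quantile normalization the array was lowest of 23 for 1 gene in place of 3. Pairs of genes with a rho of 0.5 or more were 4 as reported, 8 with no batch centring (12.7% of all pairs) and 7 within KD2 alone (4.16%). With the probe set of largest variance, DUSP4 and PHLDA1 turned in KD1 over KD2, to 0.44 and 0.46, and ETV5 in KD3 over KD1, to -0.20. ETV5 also changed sign in KD1 over KD2, from -0.05, which had not passed, to 0.70. The cause of these changes was not tested.

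Counts of genes called between batches, over both directions, stayed within 1.5 times under every alternative run. With the probe set of largest variance the directions became 6 higher and 2 lower in KD1 over KD2 and 4 higher and 5 lower in KD3 over KD1. DUSP6 in KD1 over KD2 and SPRED1 in KD3 over KD2 no longer passed. ETV5 in KD1 over KD2, and DUSP4 and SPRED1 in KD3 over KD1, passed only with that probe set. Between control siRNA and untreated arrays 0 of the 10 genes passed in all settings, with the replicate block 0 (1643 probe sets at an unadjusted p under 0.05), and 0 without each replicate in turn. Each siRNA pool was 1 culture on 1 array, and dim probe sets near the noise limit compress differences.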
